A study of Homo sapiens with 24 samples.

Results

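The inhibitors of apoptosis and their antagonists were followed in HT29 cells, an established line of human colon adenocarcinoma, as 8 genes: the inhibitors XIAP, BIRC2, BIRC3, BIRC5 and BIRC6, and the antagonists DIABLO, HTRA2 and XAF1. They were chosen by gene name, and 11 probes on 20 spots of the array measure them, out of 50599 probes with 36337 names. Untreated cells (NT) were compared with cells treated for 6 h with C3/C2, a mixture of 30 mM propionate and 15 mM acetate at the levels of the diluted supernatant, with SN, the culture supernatant of *Propionibacterium freudenreichii* diluted to 1/2, or with TRAIL, a death ligand of the TNF family given at 100 ng/ml with 2 µg/ml of the anti-Flag M2 antibody, and with cells that received TRAIL+C3/C2 or TRAIL+SN at the same doses. Each of the 6 groups has 4 arrays, and the study describes 2 independent experiments run in duplicate. It does not say which replicates came from which experiment. The main fit took the 4 arrays of a group as independent. Its p values therefore measure the spread between these samples, part of which may be technical. All cells were HT29 in serum-containing DMEM, with no genetic change stated, and the cultures were bulk samples, in which fewer cells of a kind and less RNA per cell cannot be told apart.

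Inhibitors of apoptosis carry baculoviral IAP repeats, the fold through which several of them hold caspases or their antagonists. XIAP binds and blocks initiator and effector caspases directly, whereas BIRC2 and BIRC3 (cIAP1 and cIAP2) are ubiquitin ligases of the TNF receptor complexes that direct signals toward NF-kB and survival. BIRC5, or survivin, belongs to the chromosomal passenger complex of dividing cells, and BIRC6 is a giant ubiquitin-conjugating protein. DIABLO (also called SMAC) and HTRA2 are proteins of the mitochondrial intermembrane space that displace caspases from these inhibitors once released, and XAF1 is an interferon-induced gene whose product binds XIAP.

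The sequences shown here are the probe stretches that report the inhibitor that fell (XIAP), the one that rose most (BIRC3) and the antagonist near the detection limit (XAF1). The first 30 bases of each probe of 60 bases, as given in the scanner files, read 5′ to 3′:
XIAP upstream probe A_33_P3231187: gtgaactgactttaagtaatcaagattgaa
XIAP downstream probe A_33_P3246990: ctttctgtgtggaaaactaagaaaattgct
BIRC3 probe A_23_P98350: tcctatacatcgaaggtgtgcatatatgtt
XAF1 upstream probe A_33_P3258346: aagcaccaagaagcaaaaacaaaaccttgg
XAF1 downstream probe A_24_P557479: caaataaaccaacgggaaaaaagaaaggtt

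The XIAP probes lie on the plus strand of hg19 at chrX:123041089-123041148 and chrX:123047703-123047762. They are 6614 bases apart on the genome and 6614 bases apart on transcript NM_001167 (from positions 1710 and 8324), so no intron separates them. The BIRC3 probe lies at chr11:102208356-102208415 and the BIRC2 probe at chr11:102248391-102248450, both on the plus strand, and no other gene lies between BIRC3 and BIRC2 in the RefSeq table (GRCh38.p14). Position 930 of the XAF1 transcript NM_017523 starts its upstream probe at chr17:6674143-6674202, and position 3478 its downstream probe at chr17:6678819-6678878. The DIABLO probes are 18265 bases apart on chromosome 12, at chr12:122710823-122710882 (upstream) and chr12:122692558-122692617 (downstream) of the minus strand, and were designed on different transcripts. BIRC5 was measured by a probe at chr17:76220720-76220779 printed on 10 spots, BIRC6 at chr2:32843885-32843944, and HTRA2 by a probe whose 60 bases spread over 213 bases at chr2:74758790-74759002. Of the 11 accessions, 10 are listed under the same symbol by RefSeq, and exon and UTR annotation on hg19 was not used here. The upstream DIABLO probe has a GC content of 76.7%, against 35% to 48.3% for the other members.

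BIRC3 is a textbook NF-kB target, and its promoter is shown because its message rose more than that of any other member. The 250 bases before its start in the RefSeq table (GRCh38.p14, chr11:102317234-102317483, plus strand) hold 2 matches to the NF-kB consensus, in capitals, both read on the minus strand:
BIRC3 promoter: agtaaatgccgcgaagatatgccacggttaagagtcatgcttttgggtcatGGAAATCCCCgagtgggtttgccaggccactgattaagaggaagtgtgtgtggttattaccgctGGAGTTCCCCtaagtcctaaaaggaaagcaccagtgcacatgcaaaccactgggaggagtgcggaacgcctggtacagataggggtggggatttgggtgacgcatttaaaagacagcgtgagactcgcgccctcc
These matches start 199 and 135 bases before the start site. Searched on both strands, 2075 of 35116 promoter windows of 300 bases held at least 1 match (5.91%) and 259 held at least 2 (0.738%). Among the 16 windows of the 7 member genes listed there, BIRC6 and XAF1 had 1 match in 1 window each, and no window of BIRC2, XIAP, DIABLO or HTRA2 held these letters. A match describes the sequence and does not show binding in these cells.

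Levels are given as log2 of the processed signal minus that of the array's 75th percentile, and a level of 1 probe is not set against that of another. A probe was kept when 1 of the groups or more had all 4 arrays flagged as well above background, as did 27957 probes in all, and 10 of the 11 member probes. "Passed the test" means an adjusted p under 0.05 in a limma fit over all 24 arrays, and "called" means in addition a fold change of 2 or more. Between 49.8% and 57.8% of all probes were well above background on an array, no member spot was saturated, and 1 spot of BIRC5 on 1 array was left out as an outlier. The colon epithelial markers CDX1, CDX2, VIL1, EPCAM, CDH1, KRT8, KRT18, KRT20, LGALS4 and CEACAM5 were well above background on all 24 arrays (10 of 10), and of 6 markers of other cells COL3A1 was so on none, ALB on 1, CD3E on 10, COL1A1 on 16, and PTPRC and PECAM1 on all. Only C3/C2 shares slides with NT: SN and TRAIL lay together on slide 3 and both co-treatments on slide 4. Slide and treatment can be told apart only within these pairs of groups. They cannot in the other comparisons with NT, in SN against C3/C2, or in the co-treatments against TRAIL or their partner. Nor can they where a co-treatment is set against the sum of its single changes. The choice of scaling moves all probes together. Relative to the 75th percentile, the array median shifted the median difference from NT over all probes by −0.35 in TRAIL+C3/C2, −0.30 in C3/C2, −0.19 in TRAIL+SN, −0.13 in SN and 0.10 in TRAIL, and spike-in controls shifted it by −0.69, −0.19, −0.51, 0.08 and −0.25 in the same order.

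**Figure D1:**
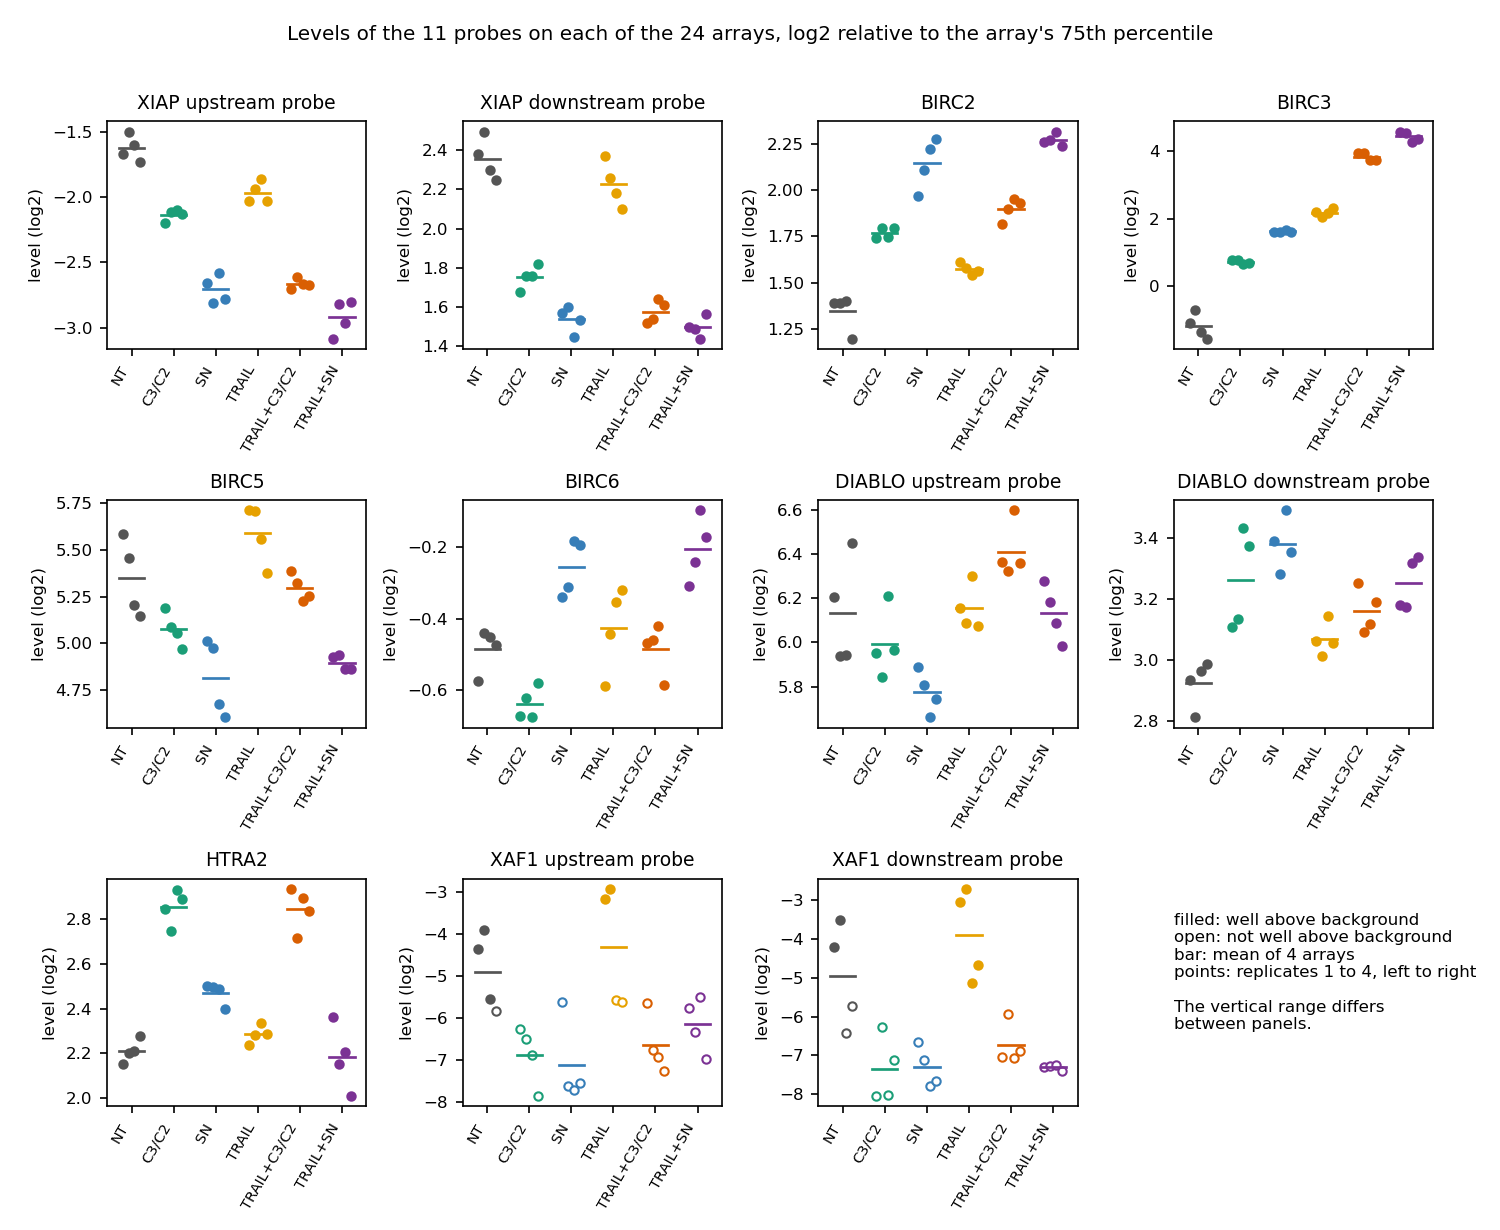
Level of each of the 11 probes (log2, scaled to the 75th percentile, vertical axis) in the 6 groups, 1 point per array and a bar at the mean of 4. BIRC3 climbs from a mean of −1.18 in NT to 4.44 in TRAIL+SN, both XIAP probes sit lower in all groups with C3/C2 or SN than in NT, and the XAF1 probes are open (not well above background) in every group with C3/C2 or SN.

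XIAP, the direct caspase inhibitor, fell in all groups with C3/C2 or SN at both of its probes. Its upstream probe had levels of −1.67, −1.50, −1.60 and −1.73 in NT replicates 1 to 4. With C3/C2 they were −2.20, −2.12, −2.10 and −2.13, and with SN −2.66, −2.81, −2.58 and −2.78. Every array with C3/C2 or SN lay below every NT array, and SN lay below C3/C2. TRAIL alone gave −2.03, −1.94, −1.86 and −2.03, TRAIL+C3/C2 gave −2.70, −2.61, −2.67 and −2.67, and TRAIL+SN gave −3.08, −2.82, −2.96 and −2.81. The TRAIL arrays thus lay between NT and C3/C2, and the co-treatments overlapped SN.

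Against NT, the upstream XIAP probe fell by 1.29 on the log2 scale in TRAIL+SN, 1.08 in SN, 1.04 in TRAIL+C3/C2, 0.51 in C3/C2 and 0.34 in TRAIL, with an SE of 0.07 for each. These are 2.45-fold, 2.12-fold, 2.05-fold, 1.42-fold and 1.26-fold decreases, all past the test (limma, largest adjusted p = 0.000742, for TRAIL, which was 0.0661 with the array median). The downstream probe gave 2.38, 2.49, 2.30 and 2.24 in NT, 1.68, 1.76, 1.76 and 1.82 with C3/C2, and 1.57, 1.60, 1.45 and 1.53 with SN. Its levels with TRAIL were 2.37, 2.26, 2.18 and 2.10, which overlap NT. With TRAIL+C3/C2 they were 1.52, 1.54, 1.64 and 1.61, and with TRAIL+SN 1.50, 1.49, 1.44 and 1.56. The downstream probe fell by 0.86 ± 0.06 (SE) in TRAIL+SN, 0.82 ± 0.06 in SN, 0.78 ± 0.06 in TRAIL+C3/C2 and 0.60 ± 0.06 in C3/C2, while its difference with TRAIL was −0.13 ± 0.06 (adjusted p = 0.131), which passed with spike-in scaling (−0.38, adjusted p = 0.0397), quantile normalization (0.0184) and normexp (0.0317). At the main scaling no treatment took the downstream probe past a fold change of 2. Over the alternatives its lowest value was −1.47 in TRAIL+C3/C2 and −1.36 in TRAIL+SN, past that line. It stayed inside the line in SN (lowest −0.94) and C3/C2 (lowest −0.90). Under every alternative run, including normexp background correction, both probes fell and passed the test in each treatment but TRAIL. The place of the upstream probe beyond the 2-fold line depends on the processing: with normexp correction it was inside that line in TRAIL+C3/C2 (−0.54), TRAIL+SN (−0.69) and SN (−0.76). In TRAIL+C3/C2 it was also just inside without NT replicate 2, and at −1.73 with spike-in scaling.

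At the main processing the probes of XIAP did not move to the same extent, though no test of this passed after adjustment. The gap between them (upstream minus downstream) averaged −3.98 ± 0.06 (SD, n = 4) in NT and −3.89 ± 0.04 with C3/C2. It averaged −4.19 ± 0.15 with TRAIL, −4.24 ± 0.07 with TRAIL+C3/C2, −4.25 ± 0.16 with SN and −4.42 ± 0.12 with TRAIL+SN. The gap is free of the scaling of the array. It changed by −0.26 in TRAIL+C3/C2 and −0.44 in TRAIL+SN relative to NT, with no overlap between arrays. The exact two-sided permutation p was 0.0286 for each, the smallest that 4 against 4 arrays allow. After adjustment over 10 such comparisons of XIAP and DIABLO it was 0.0714. The gap does depend on the background correction. With normexp the upstream difference from NT was −0.54 in TRAIL+C3/C2 and −0.69 in TRAIL+SN. The downstream difference there was −0.645 and −0.77 or lower under every alternative, so with normexp the upstream probe was not the one that fell more.

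BIRC3, the cIAP2 ligase, rose in every treatment and had the largest change in each among the 9 member probes well above background on all arrays. NT levels were −1.09, −0.72, −1.36 and −1.56. C3/C2 gave 0.78, 0.77, 0.65 and 0.68, and SN 1.62, 1.62, 1.68 and 1.61. The untreated arrays were the most spread (SD 0.37, against 0.03 to 0.14 in the treated groups), and no treated array came near them. TRAIL gave 2.20, 2.05, 2.16 and 2.31, TRAIL+C3/C2 3.95, 3.93, 3.73 and 3.74, and TRAIL+SN 4.58, 4.53, 4.29 and 4.36. All 6 groups were therefore separate, TRAIL lying above both partners and below both co-treatments. The rise over NT was 1.90 with C3/C2, 2.81 with SN and 3.36 with TRAIL, then 5.02 and 5.62 once TRAIL was joined by C3/C2 or by SN, with an SE of 0.12 for each (largest adjusted p = 1.6e-11), or 3.74-fold to 49.2-fold. Each co-treatment also exceeded TRAIL, by 1.66 ± 0.12 with C3/C2 and 2.26 ± 0.12 with SN, and exceeded its own partner, by 3.12 ± 0.12 over C3/C2 and 2.81 ± 0.12 over SN.

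BIRC2, the neighbouring gene that encodes cIAP1, rose in every treatment too at the main scaling, by less, and with TRAIL as the smallest rise. NT arrays had levels of 1.39, 1.39, 1.40 and 1.19, and C3/C2 arrays 1.74, 1.80, 1.75 and 1.79. SN gave 1.97, 2.11, 2.22 and 2.28, TRAIL 1.61, 1.58, 1.54 and 1.56, TRAIL+C3/C2 1.82, 1.90, 1.95 and 1.93, and TRAIL+SN 2.26, 2.27, 2.32 and 2.24. All treated arrays lay above all NT arrays, while SN and TRAIL+SN overlapped. The rise was 0.93 in TRAIL+SN, 0.80 in SN, 0.56 in TRAIL+C3/C2, 0.42 in C3/C2 and 0.23 in TRAIL, each with an SE of 0.06, all past the test (largest adjusted p = 0.00632, for TRAIL) and none called, but with spike-in scaling BIRC2 turned to −0.023 in TRAIL and −0.14 in TRAIL+C3/C2, neither past the test. With the array median its difference with C3/C2 was 0.12 (adjusted p = 0.215), and with spike-in scaling 0.23 (adjusted p = 0.114), whereas the rises with SN and TRAIL+SN passed under every alternative.

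BIRC5, which is needed for cell division, fell with SN and with TRAIL+SN. It was at 5.58, 5.45, 5.20 and 5.15 in NT and at 5.01, 4.97, 4.68 and 4.61 with SN, with no overlap. TRAIL+SN gave 4.93, 4.94, 4.87 and 4.86, the tightest group of this probe. In the other groups the levels were 4.97 to 5.19 with C3/C2, 5.38 to 5.71 with TRAIL and 5.23 to 5.39 with TRAIL+C3/C2, all of which overlap NT. The decrease was 0.53 ± 0.10 with SN (adjusted p = 9.5e-05), 0.45 ± 0.10 with TRAIL+SN (adjusted p = 0.000502) and 0.27 ± 0.10 with C3/C2 (adjusted p = 0.0247, but 0.106 within slide 2). The difference was 0.24 ± 0.10 with TRAIL (adjusted p = 0.0766), which passed with the replicate number as a block (adjusted p = 0.00399) and with the array median (0.34, adjusted p = 0.0158). With TRAIL+C3/C2 it was −0.05 ± 0.10, a value that rests on the scaling: it was −0.40 (adjusted p = 0.0021) with the array median and −0.74 (adjusted p = 0.000161) with spike-in controls, both past the test. BIRC6 stayed within a narrow range, from a group mean of −0.64 with C3/C2 to −0.20 with TRAIL+SN. It rose by 0.23 ± 0.06 with SN and by 0.28 ± 0.06 with TRAIL+SN, fell by 0.15 ± 0.06 with C3/C2 (adjusted p = 0.0415, but 0.0889 within slide 2), and its rise with TRAIL+SN turned to −0.23 with spike-in scaling. With the array median neither rise passed (adjusted p = 0.326 with SN and 0.401 with TRAIL+SN), and in TRAIL+C3/C2 BIRC6 was lower than in NT (−0.35, adjusted p = 0.00155).

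**Figure D2:**
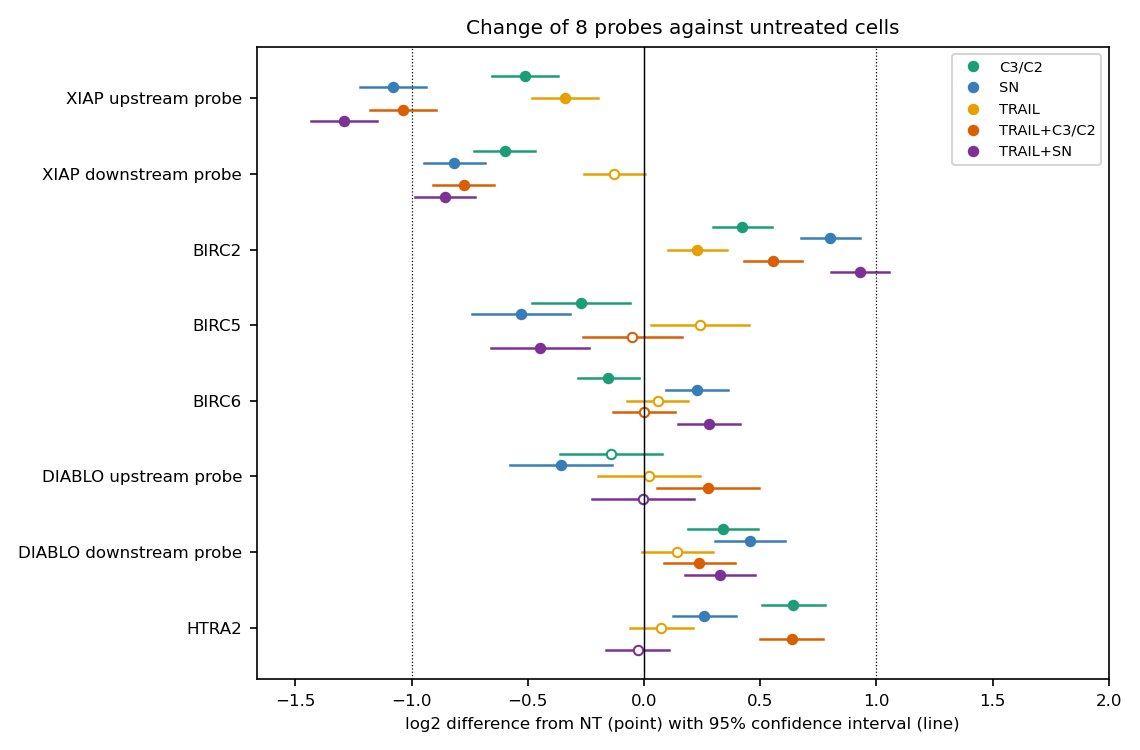
Difference from NT (log2, horizontal axis) of 8 probes in the 5 treatments, with 95% confidence intervals from the limma fit. Points are filled where the adjusted p is under 0.05, and dotted lines mark a fold change of 2. XIAP lies left of 0 in all treatments and BIRC2 right of it, although spike-in scaling turned BIRC2 to −0.023 in TRAIL and −0.14 in TRAIL+C3/C2, and only points of the upstream XIAP probe lie beyond the 2-fold line. BIRC3, whose changes run from 1.90 to 5.62, and XAF1 are left out.

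Among the antagonists, HTRA2, a mitochondrial serine protease, rose with C3/C2, and with TRAIL+C3/C2 except under spike-in scaling. Its levels were 2.15, 2.20, 2.21 and 2.28 in NT, 2.84, 2.75, 2.93 and 2.89 with C3/C2, and 2.93, 2.72, 2.90 and 2.84 with TRAIL+C3/C2. SN gave 2.50, 2.50, 2.49 and 2.40, TRAIL 2.24, 2.28, 2.34 and 2.29, and TRAIL+SN 2.36, 2.15, 2.21 and 2.01. Both groups with C3/C2 thus lay above all other arrays, and SN alone lay between them and NT. HTRA2 rose by 0.64 ± 0.07 with C3/C2, by 0.26 ± 0.07 in SN and by 0.64 ± 0.07 in TRAIL+C3/C2 (adjusted p = 2.3e-08, 0.00141 and 2.3e-08), the last of which turned to −0.059 with spike-in scaling. It differed from NT by 0.08 ± 0.07 with TRAIL (adjusted p = 0.416) and by −0.03 ± 0.07 with TRAIL+SN (adjusted p = 0.725). With TRAIL+SN it was lower and passed with the array median (−0.22, adjusted p = 0.0232) and with spike-in scaling (−0.54, adjusted p = 0.00014), and the rise with SN did not pass with the array median (0.13, adjusted p = 0.172).

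DIABLO was read differently by its probes. The downstream probe rose by 0.46 ± 0.07 in SN. It also rose by 0.34 ± 0.07 in C3/C2, but this was 0.039 with the array median (adjusted p = 0.747) and 0.15 with spike-in scaling (adjusted p = 0.243). In co-treated cells it rose by 0.33 ± 0.07 (TRAIL+SN) and 0.24 ± 0.07 (TRAIL+C3/C2), directions that spike-in scaling turned to −0.18 and −0.46, and the array median left TRAIL+SN at 0.13 (adjusted p = 0.239). Its difference with TRAIL was 0.14 ± 0.07 (adjusted p = 0.142, and 0.0493 with the replicate number as a block). Its levels ran from 2.81 to 2.99 in NT and from 3.28 to 3.49 with SN. The upstream, GC-rich probe fell by 0.36 ± 0.11 with SN (5.94 to 6.45 in NT, 5.66 to 5.89 with SN, no overlap) and rose by 0.28 ± 0.11 with TRAIL+C3/C2 (adjusted p = 0.025), which spike-in scaling turned to −0.42. With C3/C2 its difference was −0.14 ± 0.11 (adjusted p = 0.253), and −0.44 with the array median (adjusted p = 0.000995). The gap between the probes (upstream minus downstream) shrank from 3.21 ± 0.21 (SD, n = 4) in NT to 2.73 ± 0.11 with C3/C2 and 2.40 ± 0.16 with SN (exact permutation p = 0.0286 each, 0.0714 adjusted over the 10 comparisons). With TRAIL+C3/C2 the array median also gave negative values, −0.072 upstream and −0.11 downstream.

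XAF1, the interferon-induced partner of XIAP, was near the detection limit. All 4 TRAIL arrays and 2 of the 4 NT arrays had the downstream probe well above background, and no array with C3/C2 or SN did. It passed the filter only through TRAIL, where it is high. Processed signals of this probe were 40.7, 80.9, 11.8 and 15.9 in NT replicates 1 to 4 and 83.0, 103, 17.8 and 25.6 with TRAIL. They were 2.90 to 11.6 with C3/C2, 3.62 to 7.16 with SN, 3.39 to 8.42 in TRAIL+C3/C2 and 3.14 to 3.57 in TRAIL+SN. As these 4 groups were not well above background, the fold is a nominal bound, taken against the higher of the lowest level marked well above background on each array and the probe's own level. The NT mean was taken as measured, with 2 arrays not well above background, so the bound is not a guaranteed minimum. By this rule XAF1 was 1.76-fold lower than NT with C3/C2, 1.57-fold with SN, 1.13-fold in TRAIL+C3/C2 and 1.14-fold in TRAIL+SN, where the limma fit gave adjusted p = 0.00112, 0.00122, 0.0102 and 0.00119. With C3/C2 the arrays overlapped NT: NT replicate 3 was at −6.42 and C3/C2 replicate 2 at −6.27. Relative to TRAIL no bound is given, as TRAIL is the group that let the probe through the filter. The upstream probe did not pass the filter: only 3 NT and 2 TRAIL arrays had it well above background. By the same rule the upstream probe was 1.82-fold lower with C3/C2 than in NT (exact permutation p = 0.0286, no overlap) and 1.60-fold lower with SN (exact permutation p = 0.0571). Within slide 2 the fitted difference of the downstream probe for C3/C2 kept its sign and had adjusted p = 0.0804. Under normexp correction with an offset of 50, the fitted values in both co-treatments turned positive (0.15 and 0.072) and did not pass the test.

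The XAF1 values followed the replicate number. In NT the mean of replicates 1 and 2 exceeded that of replicates 3 and 4 by 2.24 (downstream) and 1.55 (upstream), and with TRAIL by 2.03 and 2.55, more than the difference between NT and TRAIL, which was 1.07 ± 0.58 (adjusted p = 0.173). A difference over 2 in size between these pairs was found for 23 of 27957 probes in NT and 12 in TRAIL. IFIT1 and MX1, interferon-induced genes chosen as examples after their values were seen, were split the same way in each of the 6 groups. IFIT1, an RNA-binding protein, was higher in replicates 1 and 2 than in 3 and 4 by 1.36 in NT and 1.67 in TRAIL, and MX1, an antiviral GTPase, by 1.43 and 1.42. BIRC5 was also higher in replicates 1 and 2 in every group, by 0.07 in TRAIL+SN to 0.35 in SN. With the replicate number as a block, 87 of 90 results of the members kept their side of the threshold and 3 gained it, and XAF1 with TRAIL was among those kept. The comparison of XAF1 in TRAIL with NT uses the TRAIL arrays that let it through the filter, so its p values cannot decide whether TRAIL raised XAF1. Fitted on replicates 3 and 4 only, XAF1 was 1.17 higher with TRAIL than in NT (adjusted p = 0.0314), and without NT replicate 2 it was 1.56 higher (adjusted p = 0.0483), whereas on replicates 1 and 2 only it was 0.97 (adjusted p = 0.27). Under normexp it was 0.64 (adjusted p = 0.0101). The splits into replicates 1 and 2 and replicates 3 and 4 were chosen after seeing the data.

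**Figure D3:**
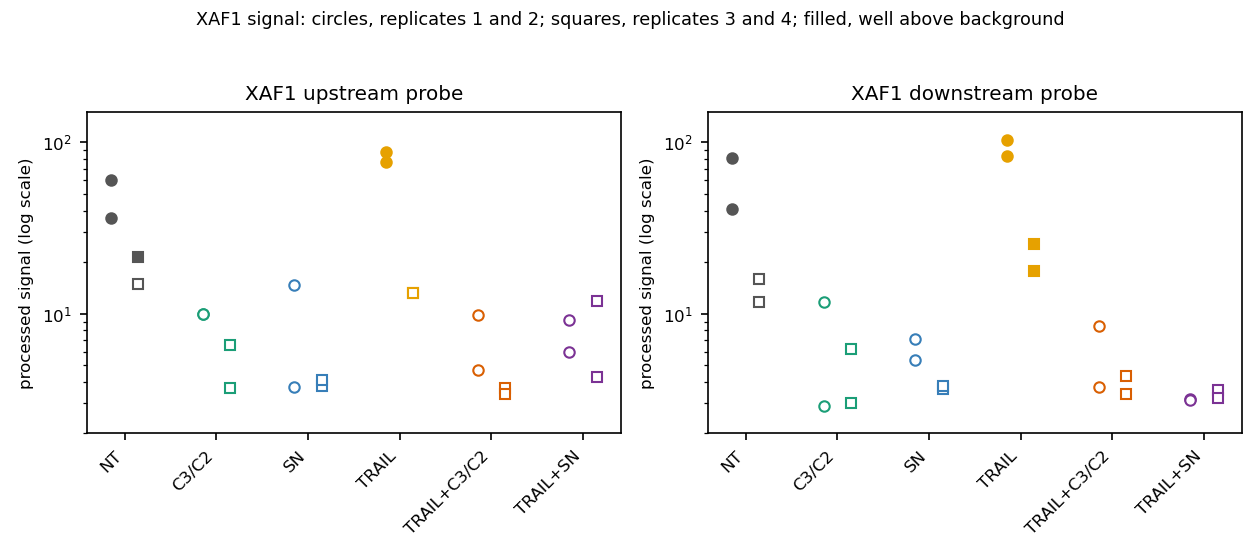
Processed signal of the XAF1 probes (log axis) on each array of the 6 groups. Circles are replicates 1 and 2, squares replicates 3 and 4, and filled symbols are well above background. In NT and TRAIL the circles lie above the squares for both probes, and all symbols are open in the groups with C3/C2 or SN.

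Counted over the 10 probes that passed the filter, BIRC3 was the 1 probe called higher in each treatment, against 0.723% of all probes tested in TRAIL, 13.3% in C3/C2, 14.1% in SN, 16.1% in TRAIL+SN and 16.4% in TRAIL+C3/C2. Called lower was XIAP upstream in SN (9.69% of all probes), TRAIL+C3/C2 (8.12%) and TRAIL+SN (10.2%), and with TRAIL (2.11%) no member was. The fitted value of XAF1 met the rule for a lower call in these groups and in C3/C2 (6.22%), but on signals not well above background, and its bounds do not reach a fold change of 2. XAF1 entered these counts through a filter it passed in TRAIL only, and with normexp correction BIRC3 alone was called in each treatment. On the adjusted p alone, 9 of 10 member probes passed in C3/C2 and 10 in SN, against 63.2% and 68.9% of all probes. TRAIL had 3 (31.5%), and each co-treatment 8, against 69.6% of all probes where C3/C2 was the partner and 70.3% where SN was. Each count of member calls rests on 1 or 2 probes, and the one in TRAIL on BIRC3 alone, beside 0.723% of all probes called higher. The members' median difference from NT was −0.15 with C3/C2, −0.06 with SN and 0.11 with TRAIL, beside 0.07, −0.01 and 0.04 for all probes. It was 0.12 and −0.01 in the co-treatments with C3/C2 and SN, beside 0.10 and 0.05. All of these comparisons share the NT arrays.

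The comparison of SN with C3/C2 asks what the supernatant does beyond its main acids. SN (slide 3) and C3/C2 (slides 1 and 2) share no slide, so slide and treatment cannot be told apart in this comparison. No member probe was called in it (limma, with 5.49% of all probes called in either direction), nor between TRAIL+SN and TRAIL+C3/C2 (3.48%), but 7 of 10 passed on the adjusted p in each. The share of all probes past the adjusted p alone was not taken for these comparisons. The 7 of 10 therefore have no background beside them. BIRC3 was higher with SN by 0.91 ± 0.12 and with TRAIL+SN by 0.60 ± 0.12, BIRC2 by 0.38 ± 0.06 and 0.37 ± 0.06, and BIRC6 by 0.38 ± 0.06 and 0.28 ± 0.06. HTRA2 was lower by 0.38 ± 0.07 and 0.66 ± 0.07, with all 4 TRAIL+SN arrays below all TRAIL+C3/C2 arrays. Without TRAIL the HTRA2 value was −0.11 with spike-in scaling (adjusted p = 0.422). XIAP upstream was lower by 0.57 ± 0.07 and 0.25 ± 0.07, of which the first did not pass with spike-in scaling (−0.30, adjusted p = 0.0632). The second did not pass with the array median (−0.10, adjusted p = 0.464), spike-in scaling (0.742), quantile normalization (0.117) or normexp (0.0549). BIRC5 was lower by 0.26 ± 0.10 and 0.40 ± 0.10, of which the first turned to 0.012 with spike-in scaling and did not pass with the array median (adjusted p = 0.525) or without a filter (0.0666). Between the co-treatments BIRC5 did not pass with the array median (−0.25, adjusted p = 0.0776) or spike-in scaling (−0.21, adjusted p = 0.34). The co-treatments share slide 4, and fitted on that slide alone HTRA2 (adjusted p = 0.00132), BIRC5 (0.00228), BIRC2 (0.00235), BIRC3 (0.00243) and BIRC6 (0.0188) passed again. For the downstream DIABLO probe the 95% confidence interval of the difference was −0.04 to 0.27 without and −0.06 to 0.24 with TRAIL, and without TRAIL it was higher with SN and passed with the array median (0.29, adjusted p = 0.0224) and spike-in scaling (0.39, adjusted p = 0.00459).

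**Figure D4:**
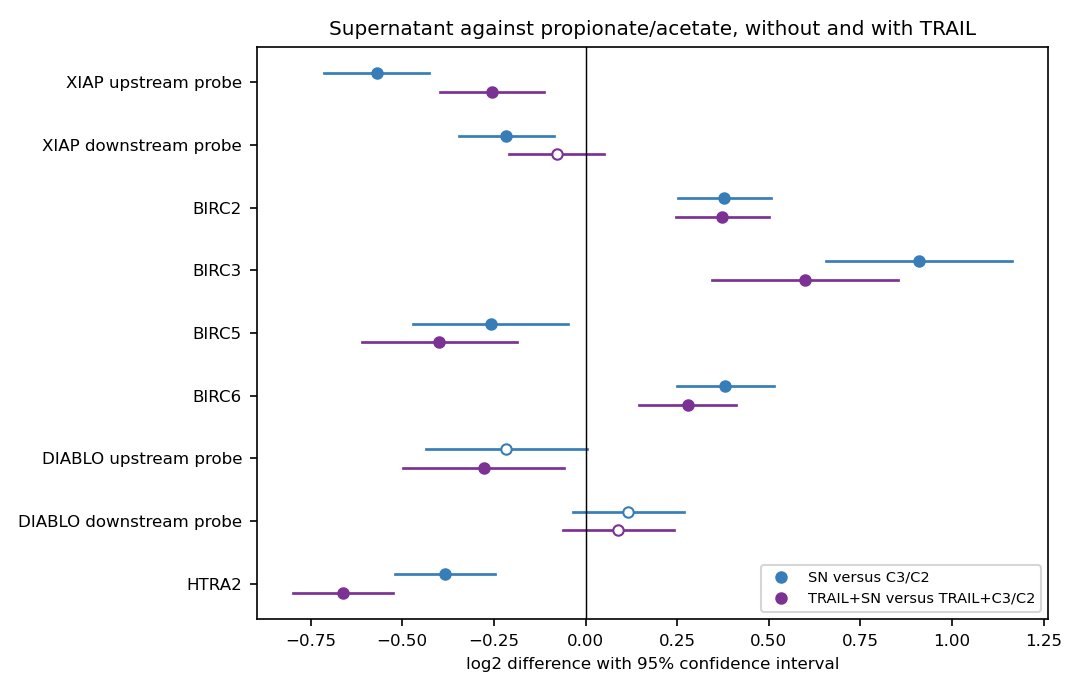
Difference between SN and C3/C2 (log2, horizontal axis) for 9 probes, without TRAIL (blue) and with TRAIL (purple), with 95% confidence intervals; filled points passed the test. BIRC2, BIRC3 and BIRC6 lie right of 0 (higher with the supernatant), and XIAP, BIRC5 and HTRA2 lie left of it, although spike-in scaling moved BIRC5 and downstream XIAP without TRAIL to 0.012 and 0.054.

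Whether TRAIL adds to C3/C2 or SN was tested as the departure of the co-treatment from the sum of both single changes on the log2 scale. No member passed this test in TRAIL+C3/C2 (0 of 10 in limma, and none was called, against 0.608% of all probes). Both DIABLO probes, 2 of the 10, had an unadjusted p under 0.05 there, with departures of 0.40 ± 0.15 upstream and −0.25 ± 0.10 downstream. BIRC3 changed by 5.02 in TRAIL+C3/C2 where the single changes sum to 5.26, a departure of −0.24 ± 0.17 (adjusted p = 0.555). In TRAIL+SN it changed by 5.62 where they sum to 6.17, a departure of −0.55 ± 0.17 (adjusted p = 0.0254), and HTRA2 by −0.03 where they sum to 0.34, a departure of −0.36 ± 0.09 (adjusted p = 0.00799). These were the 2 of 10 members past the test. Neither was called, where 2.98% of all probes were called. The share of all probes past the adjusted p alone was not taken for this departure. The departure of the downstream DIABLO probe in TRAIL+SN was −0.27 (adjusted p = 0.0647), and it passed with the array median (−0.44, adjusted p = 0.027), spike-in scaling (−0.60, 0.00519), normexp (−0.36, 0.04) and the replicate number as a block (0.0151). The BIRC3 departure varied with the arrays used: it was −0.09 in replicates 1 and 2 alone (adjusted p = 0.723), and NT replicates 1 and 2 were above replicates 3 and 4 by 0.56. The HTRA2 departure kept its size but did not pass in replicates 1 and 2 alone (−0.32, adjusted p = 0.125) or in replicates 3 and 4 alone (−0.40, adjusted p = 0.0659). For XIAP neither departure passed, with values of −0.19 ± 0.10 and 0.13 ± 0.10 upstream (95% confidence intervals −0.39 to 0.01 and −0.07 to 0.33), and the second passed under normexp (0.30, adjusted p = 0.014).

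**Figure D5:**
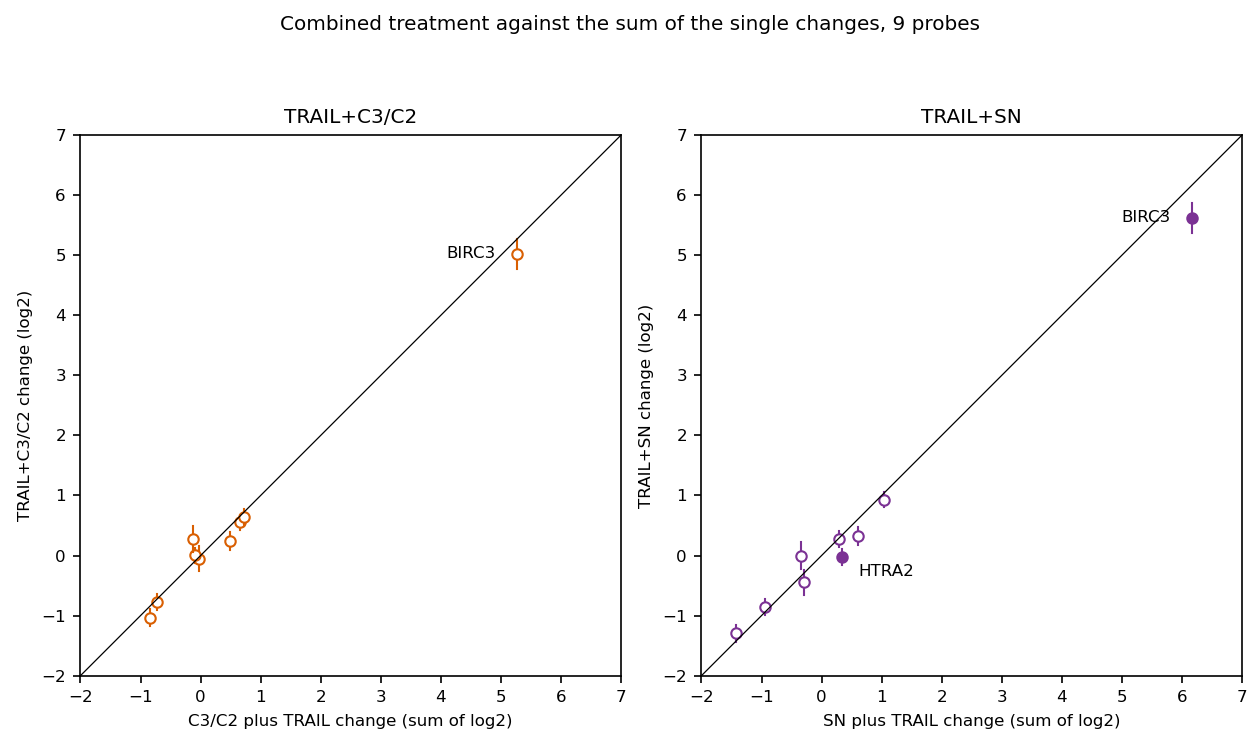
Change in the co-treatment (log2, vertical axis, with 95% confidence interval) against the sum of the changes with TRAIL and with the partner alone (horizontal axis) for 9 probes, XAF1 left out. The diagonal marks equality; filled points are those whose departure passed the test, BIRC3 (5.62 against 6.17) and HTRA2 in TRAIL+SN.

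In the other direct comparisons, TRAIL+C3/C2 against TRAIL called BIRC3 higher (21% of all probes called), as did TRAIL+SN against TRAIL (22.4%). XAF1 is left out of the comparisons with TRAIL, the group that let it through the filter. XIAP fell in both, by 0.70 ± 0.07 and 0.95 ± 0.07 upstream and by 0.65 ± 0.06 and 0.73 ± 0.06 downstream. Adding TRAIL to C3/C2 called BIRC3 only (3.63%), and lowered XIAP upstream by a further 0.53 ± 0.07. Adding TRAIL to SN called BIRC3 only (1.07%), and XIAP upstream fell by 0.21 ± 0.07 (adjusted p = 0.0343). Between SN and TRAIL, which share slide 3, the other 9 member probes passed on the adjusted p and none was called by limma (21% of all probes were), with BIRC3 lower by 0.55 ± 0.12, XIAP upstream lower by 0.74 ± 0.07, BIRC5 lower by 0.77 ± 0.10 and BIRC2 higher by 0.57 ± 0.06. The share of all probes past the adjusted p alone was not taken here either, so the 9 have no background beside them.

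Genes that work with the members were taken from lists, and are given as counts of probes. Of the 4 NF-kB feedback genes (NFKBIA, TNFAIP3, NFKB2 and RELB, which restrain NF-kB or belong to its second branch), 3 were called higher with C3/C2, 2 with SN, and all 4 with TRAIL and both co-treatments, beside 13.3%, 14.1%, 0.723%, 16.4% (TRAIL+C3/C2) and 16.1% (TRAIL+SN) of all probes. Their median change was 2.63 in TRAIL and 3.01 in TRAIL+C3/C2. NFKBIA, the inhibitor that holds NF-kB in the cytoplasm, fell by 0.31 with SN (adjusted p = 0.0358). TNFAIP3, which encodes the ubiquitin-editing enzyme A20, rose by 1.72 with C3/C2 and by 5.54 with TRAIL+SN. Of 15 probes for 11 of the 12 genes for partners of BIRC2 and BIRC3 in receptor complexes, MAP3K14, the NF-kB-inducing kinase that cIAPs mark for degradation, was called higher in every treatment but TRAIL, by 1.66 with C3/C2 and 2.70 with TRAIL+SN (0.85 with TRAIL), and TRAF3 was called lower with SN. On the adjusted p 8 of the 15 rose and none fell with TRAIL, where 31.5% of all probes passed in either direction. With C3/C2 4 rose and 4 fell (63.2% of all probes), with SN 8 and 3 (68.9%), with TRAIL+C3/C2 8 and 3 (69.6%), and with TRAIL+SN 9 and 3 (70.3%). TRAF1 did not pass the filter.

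Of 4 tested probes of 3 caspases, 1 was called higher with SN, at 1.03, beside 14.1% of all probes. It measures CASP9, an initiator caspase bound by XIAP, which rose by 0.63 with C3/C2 and 0.91 with TRAIL+SN without being called. Of 8 tested probes of other inhibitors and antagonists, NAIP, a BIR protein of the inflammasome, was called lower in all treatments but TRAIL. The shares of all probes called lower were 6.22% in C3/C2, 9.69% in SN, 8.12% in TRAIL+C3/C2 and 10.2% in TRAIL+SN. PARL, the mitochondrial protease that processes DIABLO, fell at both probes by 0.51 and 0.58 with C3/C2 and by 0.68 and 0.81 with SN. BIRC8 and SEPT4 were not well above background on any array. The chromosomal passenger partners of BIRC5 (AURKB, INCENP and CDCA8) all fell with SN and TRAIL+SN, INCENP by 1.02 with SN. There 68.9% and 70.3% of all probes passed the adjusted p in either direction. With TRAIL none of the 3 passed the test (31.5% of all probes). Of 12 proliferation probes (MKI67, TOP2A, CCNB1, CDK1, PCNA and MCM2), 11 fell with SN, 11 with TRAIL+SN, 8 with TRAIL+C3/C2 and 6 with C3/C2, and none fell with TRAIL, beside 68.9%, 70.3%, 69.6%, 63.2% and 31.5% of all probes past the adjusted p in either direction. Of 8 probes for 8 interferon-induced genes, IRF1, OAS1 and ISG15 were called higher with SN and in both co-treatments. The shares of all probes called higher were 14.1% in SN, 16.4% in TRAIL+C3/C2 and 16.1% in TRAIL+SN. With TRAIL only IRF1 was called higher (0.723%), and with C3/C2 none was (13.3%). IFIT3 was called lower in all treatments but TRAIL (beside 6.22% to 10.2% of all probes), the groups in which no array had XAF1 well above background.

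Likeness was taken as Pearson's r over the 24 arrays with the brightest probe of a member, among 18275 probes of named genes well above background on all arrays. It is a description of arrays that share 6 treatments. For BIRC3 the nearest genes were NFKBIE (r = 0.992), TNFAIP3 (0.983) and IRAK2 (0.98), for BIRC2 VEZT (0.978), PLCE1 (0.973) and LINS (0.973), and for XIAP HOTAIR (0.979), FAM208A (0.978) and C18orf56 (0.975). BIRC5 was nearest to NUSAP1 (0.958), SPC24 (0.957) and KIF22 (0.956), which are genes of the mitotic spindle and kinetochore. XAF1 was nearest to KIF23 (0.917), PARP10 (0.904) and SP110 (0.894), by an upstream probe that was well above background on 5 of the 24 arrays.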

How the data were processed

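RNA of each HT29 culture was labelled with Cy3 and hybridised alone to an Agilent whole human genome array. Signals were read with Agilent Feature Extraction 10.7.3.1, and the authors deposited intensity values that, per the file headers, were detrended and background-subtracted but not normalized between arrays. The raw mean and local background intensities in the same deposited files served for normexp only. A deposited series file of the same intensities divided by each array's median was used as an alternative, and its 24 columns of flags were not used. Outlier spots were left out, spots of a probe averaged as log2 values, and each array was scaled by the 75th percentile over its 58717 non-control spots. A model of 6 group means was fitted over 24 arrays in limma 3.58.1 (with statmod 1.5.0 and version 1.17.8 of data.table under R 4.3.3), with 18 residual degrees of freedom (17 for 21 probes), and p values were adjusted by the Benjamini-Hochberg method over 27957 probes in each of 14 comparisons. The script was tested on simulated data. Single values were compared by exact two-sided permutation tests. The number of arrays limits the precision, and the median SE of a difference from NT was 0.11. Alternatives were the scaling (array median, spike-in, quantile), the background correction (normexp), the filter, the slide as a block, the replicate number as a block, and each array left out. All probes of the 8 genes are named, and genes of other lists where they were called or a result turned on them. Some genes of the lists are not reported here. The members and lists were chosen with earlier results of these data known.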

Additional observations from a re-analysis of the deposited data

Results flagged for a closer look

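In 6 of 66 sets of 4 arrays a single array of a member probe lay far from the other 3 by Dixon's criterion, where chance gives about 1 in 20. BIRC2 in NT replicate 4 was at 1.19, with the others at 1.39 to 1.40. BIRC3 in SN replicate 3 was at 1.68, with the others at 1.61 to 1.62. The upstream DIABLO probe was at 6.60 in TRAIL+C3/C2 replicate 3 (others 6.32 to 6.36), and HTRA2 at 2.40 in SN replicate 4 (others 2.49 to 2.50). XAF1, not well above background on these arrays, was at −5.61 upstream in SN replicate 1 (others −7.72 to −7.55) and at −5.93 downstream in TRAIL+C3/C2 replicate 2 (others −7.06 to −6.90).

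The effect of TRAIL differed with and without SN, by the interaction term in limma, for 2 of the 10 member probes tested: BIRC3 (−0.55) and HTRA2 (−0.36). Neither passed under every alternative.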

How the results depend on the processing

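Over 43 settings, 3452 of 3613 recomputed values for 90 results kept their side of the threshold, and their direction where the main value passed. Of the rest, 104 lost the threshold, 39 gained it and 18 changed sign. These totals are not made of independent checks. The setting with the adjusted p alone repeats the main fit, so its 90 values were kept by construction. The authors' table repeats the array median, and most settings only leave out 1 array. A change of sign was counted only where the main or the recomputed value passed. HTRA2 with TRAIL, for example, went from 0.08 to −0.18 under an alternative and was counted as kept. The larger changes in the counts of member probes called were as follows, with XAF1 counted by its fitted value also against TRAIL, through which it passed the filter. Smaller changes are not listed, such as the loss of XAF1 from SN and both co-treatments against NT with a filter on all arrays. With the array median and with the authors' table there were 1 for SN against C3/C2, 4 for TRAIL+C3/C2 against TRAIL and 4 for TRAIL+SN against TRAIL. With spike-in scaling there were 1, 4 and, for TRAIL+C3/C2 against C3/C2, 2. With normexp correction 1 was left for each of the treatments against NT and for both co-treatments against TRAIL. Without a filter there were 2 for SN against TRAIL, and with a filter on all arrays 0 there and 1 for C3/C2 against NT and for each co-treatment against TRAIL. On the adjusted p alone the counts against NT were 3 for TRAIL, 9 for C3/C2, 10 for SN and 8 for each co-treatment, then 7 for SN against C3/C2, 7 between the co-treatments, 8 and 8 for the co-treatments against TRAIL, 4 and 4 against their partners, 10 for SN against TRAIL and 2 for the interaction with SN. Only the counts against NT can be set beside a share of all probes past the adjusted p. Within slide 2 the count for C3/C2 was 1. On replicates 3 and 4 only, chosen after seeing the data, it was 2 for TRAIL and 1 for the interaction with SN. Leaving out 1 array gave 1 to 2 for TRAIL and 1 to 3 for TRAIL+C3/C2, both through NT replicate 2, without which XAF1 was called in TRAIL (1.56) and lost in TRAIL+C3/C2 (−1.28).

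By this count, signs turned in TRAIL+C3/C2 for BIRC6 (−0.35) and DIABLO (−0.072 upstream, −0.11 downstream) with the array median and the authors' table. With spike-in scaling they turned for BIRC2 (−0.023 in TRAIL, −0.14 in TRAIL+C3/C2), BIRC6 (−0.69 in TRAIL+C3/C2, −0.23 in TRAIL+SN), DIABLO (−0.42 upstream and −0.46 downstream in TRAIL+C3/C2, −0.18 downstream in TRAIL+SN), HTRA2 (−0.059 in TRAIL+C3/C2), and for downstream XIAP (0.054) and BIRC5 (0.012) between SN and C3/C2. With normexp XAF1 was at 0.15 in TRAIL+C3/C2 and 0.072 in TRAIL+SN. The cause was not tested.

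The departure of BIRC3 in TRAIL+SN ranged from −1.02 to −0.09 and lost the threshold in 7 settings, among them normexp and the omission of NT replicate 3, NT replicate 4 or TRAIL+SN replicate 3. The main fit did not take the replicate numbers as pairs, although arrays with the same number were alike in what the group means leave. For these correlations each probe's group mean was subtracted from its levels. Same-numbered arrays of different groups correlated at 0.05 to 0.45 (mean 0.19, 52 of 60 pairs over 0.1). For different numbers the mean was −0.06. Among arrays of other groups, 23 of 24 arrays correlated best with their own number. All 24 correlated best with an array on their own side of the replicate split described for XAF1. Within a group, arrays across that split correlated at −0.55 to −0.33, and those on the same side at −0.20 to 0.23. Subtracting the mean of 4 arrays by itself pushes correlations within a group below 0. The main fit leaves this structure out. With the replicate number as a block, 87 of 90 results were the same and 3 gained the threshold: BIRC5 in TRAIL (0.24, adjusted p = 0.00399), downstream DIABLO in TRAIL (0.14, adjusted p = 0.0493) and its departure in TRAIL+SN (−0.27, adjusted p = 0.0151), and no count of calls changed. XAF1 lay too near background for a fold beyond a nominal bound.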
